A study of Mus musculus with 22 samples.

Results

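Lymphomas of Eμ-Myc mice were compared with normal B cells over all genes that the arrays could measure, to describe how far the expression of a lymphoma lies from that of a wild type B cell. The lymphoma group took every array whose title names malignant Myc B lymphocytes, 13 in all, and the normal group took every array titled wild type B220+, 4 in all. Together they are 17 of the 22 arrays of the series. The other 5 arrays hold premalignant Eμ-Myc B cells positive for B220 and serve here only to place the lymphomas. All mice were C57Bl/6. The lymphomas came from independent mice with the Eμ-Myc transgene, in which an immunoglobulin heavy chain enhancer drives Myc, so the oncogene is driven in the B lineage. Littermates aged 4 to 6 weeks gave the cells of the premalignant and wild type arrays. That age is repeated on the lymphoma labels and was left aside for them. Per the labels, B cells of spleen or bone marrow were captured on MACS beads against B220 or IgM. The sources used here do not assign a tissue or antibody to each array, so their part in any difference was not tested. Wild type samples are labelled as biological replicates, with no word on whether they came from separate mice, so p-values measure the spread between these samples.

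Myc is a transcription factor that pairs with Max and binds the E-box, a short palindromic DNA motif. Its known targets include genes for making ribosomes, nucleotides and the proteins of the cell cycle, and it is known to feed glycolysis and amino acid uptake. Eμ-Myc mice first expand early B cells and later develop pre-B or B cell lymphomas. A resting mature B cell, by contrast, carries a B cell receptor, MHC class II, complement and chemokine receptors, and transcription factors of the Kruppel-like family that hold lymphocytes in quiescence.

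Levels are log2 of GCRMA intensities on Affymetrix MOE430A arrays, and log2 4 was taken as the floor below which a probe set was not counted as measured. Of 12393 genes with a probe set of their own, 6437 passed the filter of more than log2 4 on at least 4 of the 22 arrays, and 4767 of these were above the floor on all 17 arrays. The filter passed 195 genes through the lymphomas alone, and 342 genes that no wild type array held above the floor. In the other direction, it passed 128 genes that no lymphoma array held above the floor. For all these genes, passing already rested on their level in other arrays, which limits what their p-values show. Such genes also enter the counts of the gene lists below, Mcm10, Bcat1, Cxcr5 and Fos among them. A fold against a group mean under the floor is written as at least N-fold. The number of arrays, above all the 4 of wild type cells, limits the precision. All arrays correlated at 0.959 to 0.992 within the lymphomas and at 0.977 to 0.994 within the wild type group. The array controls for RNA and labelling quality differed between the groups. For beta-actin, the 3′ minus 5′ probe set difference was 1.93 ± 0.37 log2 units in lymphomas and 0.77 ± 0.095 in wild type cells (SD, n = 13 and 4; exact permutation p = 0.00042, two-sided, the smallest that this design allows), with no overlap. For Gapdh the means were 0.94 in lymphomas and 0.45 in wild type cells (exact permutation p = 0.0038). A fit with the beta-actin difference as a covariate is therefore given beside most gene groups. Because the 2 groups do not overlap in it, the part of RNA quality and the part of lymphoma cannot be told apart by that fit.

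Several lymphoma arrays also held transcripts of other tissues. Bpifa2, a secreted salivary protein, was above the floor in 7 lymphomas, replicates 1, 2, 3, 4, 6, 7 and 13, at up to 12.79, and lay at 2.46 to 2.49 in all wild type arrays. The summed intensity of 13 salivary gland genes ran from 89.6 to 11629 in lymphomas with a median of 1047, and from 104 to 113 in wild type cells. For 23 genes of stroma and endothelium the sum was 1023 to 5428 in lymphomas with a median of 2294, and 386 to 486 in wild type cells. Of those 23 genes, 17 were above the floor on some lymphoma array and 4 on some wild type array, while Lum, Pdgfra, Cdh5, Tek, Lama4 and Timp3 were at the floor on all 17 arrays. Of 16 T cell markers, 11 were at the floor on all 17 arrays, Cd3d, Cd3e and Cd3g among them. The B cell label was borne out by Cd79b, a chain of the B cell receptor, which lay at 10.04 to 11.33 in lymphomas and at 12.95, 12.81, 12.67 and 12.60 in wild type cells, whereas Pax5, a defining B lineage factor, was at the floor on all 17. The sum of 11 B cell identity genes was 8508 to 15452 in lymphomas and 26713 to 30748 in wild type cells. Counts without the 7 arrays that held Bpifa2 are given where they move a result by more than 1.5 times.

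The distance between a lymphoma and a wild type B cell was large against the spread within either group. Over the 6437 genes the root mean square (RMS) difference between the group means was 1.24 log2 units (exact permutation p = 0.00042, one-sided, the smallest that this design allows). Between single arrays it was 1.36 at the median for pairs of a lymphoma and a wild type array (1.22 to 1.57, 52 pairs), 0.724 for pairs of lymphomas (0.342 to 0.927, 78 pairs) and 0.514 for pairs of wild type arrays (0.319 to 0.620, 6 pairs). The closest lymphoma and wild type array were thus farther apart than any pair of lymphomas. Each lymphoma lay 1.21 to 1.51 from the wild type mean, on average 1.32 ± 0.089 (SD, n = 13), and each wild type array lay 0.379 to 0.506 from the mean of the other 3, wild type replicate 2 being the farthest. Lymphoma replicate 1 was the farthest and replicate 2 the nearest. The first principal component of the 17 arrays held 58.8% of the variance and put lymphomas at 23.3 ± 7.74 and wild type arrays at -75.8 ± 2.54. Of the whole variance over genes, 57.5% lay between the 2 groups. Within the 13 lymphomas, distance from wild type and the beta-actin difference had Pearson r = 0.370 (permutation p = 0.21) and Spearman rho = 0.319 (permutation p = 0.29), 1 relation being computed, and r was 0.12 without the 2 arrays farthest from the median of the beta-actin difference.

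**Figure D1:**
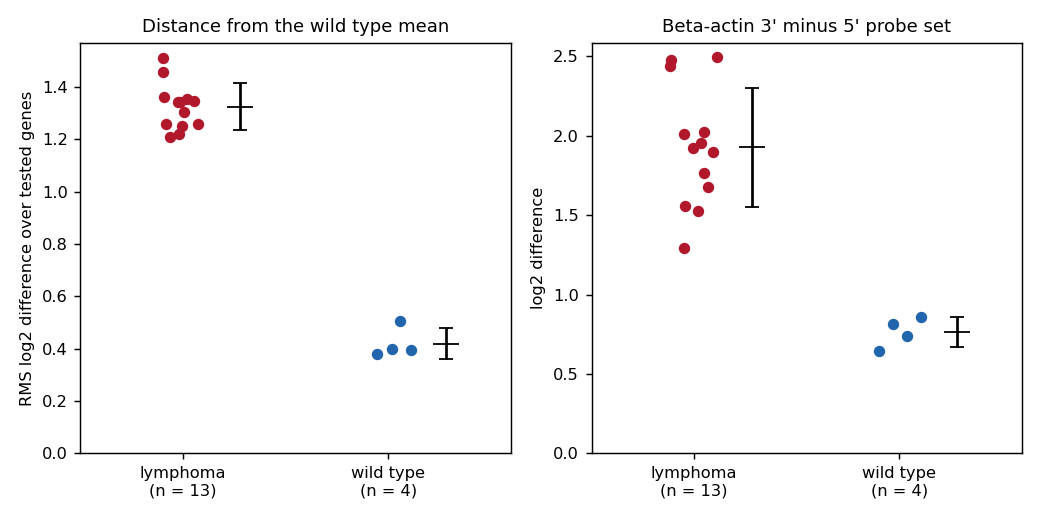
Left, RMS log2 distance of each array from the wild type mean over 6437 genes (a wild type array is set against the other 3). Right, beta-actin 3′ minus 5′ probe set in log2 units. Points are arrays, and bars are the group mean and SD. All 13 lymphomas lie at 1.21 or more in distance and all 4 wild type arrays at 0.506 or less, and the groups do not overlap in the beta-actin measure either.

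Most measured genes differed. Of the 6437 genes, 3956 (61.5%) passed at an adjusted p under 0.05 in limma, 2045 (31.8%) higher and 1911 (29.7%) lower in lymphomas. These shares are the background against which each gene group below is read. In 2171 genes (33.7%) no lymphoma overlapped the wild type range, 1175 (18.3%) of them higher and 996 (15.5%) lower. The median size of a change was 0.619 log2 units, and the middle 50% of genes lay between 0.278 and 1.20. A change of at least 2-fold was called for 1989 genes (30.9%), and for 894 (13.9%) the change exceeded 2-fold beyond its error (limma treat), 456 higher and 438 lower. At the other end, the 95% interval lay wholly within 0.5 log2 units of no change for 844 genes (13.1%).

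On the deposited scale the largest changes were losses. Among called genes with group means bounded at the floor, 261 were at least 4-fold higher and 271 at least 4-fold lower in lymphomas. At 16-fold the counts were 9 higher and 38 lower, and at 32-fold 0 higher and 14 lower. In 81 genes all 4 wild type arrays were at or under the floor and all 13 lymphomas above it, and in 77 genes the reverse held. The split between rises and falls depends on how arrays are scaled. When each array was centred on its hybridisation spikes, the median change over all genes shifted up by 0.32 log2 units, giving 2076 genes higher (32.3%) and 843 lower (13.1%), which is 71.1% higher among the called against 51.7% as deposited. With the beta-actin covariate 926 genes were higher (14.4%) and 953 lower (14.8%).

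**Figure D2:**
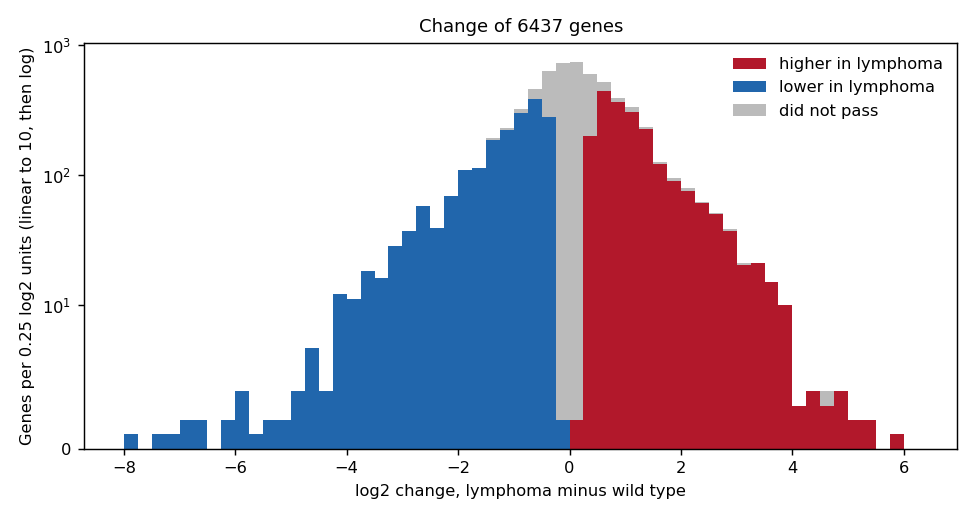
Number of genes by log2 change, lymphoma minus wild type, in bins of 0.25, with a vertical axis that is linear to 10 and logarithmic above. Colours mark the 2045 genes called higher, the 1911 called lower and the 2481 that did not pass. The left tail of losses reaches farther from 0 than the right tail of gains.

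The transgene product was checked first. Myc had a level of 8.67 to 10.76 in lymphomas with a median of 9.62, against 7.39, 6.74, 6.96 and 7.07 in wild type cells. All 13 lymphomas lay above all 4 wild type arrays. The rise was 5.83-fold (limma adjusted p = 5.9e-07), and the premalignant mean was 9.97. Of the 9 tested genes of the Myc and Max network, 2 rose and 3 fell, with a median log2 change of -0.08 beside 0.04 over all genes, and with spike centring that median was 0.24. With the covariate 1 was higher and 0 lower. Mxi1, which competes with Myc for Max, rose 3.09-fold (adjusted p = 3.9e-04, 0.28 with the beta-actin covariate), with 2 lymphomas inside the wild type range. Mxd4, another such antagonist, fell 3.89-fold (adjusted p = 1.2e-04, 0.056 with the covariate). Mycn, a paralog of Myc, lay at 3.50 to 3.82 in lymphomas, under the floor, and at 3.99, 4.01, 4.17 and 4.26 in wild type cells, and its call ended with spike centring (adjusted p = 0.71). Mlx, a Max-like protein, fell at least 1.99-fold (adjusted p = 0.28 with the covariate). Mnt, Mga, Mxd3 and Mlxip did not pass.

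Genes for making ribosomes rose nearly without exception. Of 42 tested genes of ribosome biogenesis and RNA polymerase I, 41 were higher and 0 lower in lymphomas, with a median log2 change of 1.43, and in 34 no lymphoma overlapped the wild type range. With the beta-actin covariate 31 were higher. Rrp1b, a nucleolar protein, lay at 7.19 to 8.33 in lymphomas (median 7.92) and at 3.50, 5.04, 3.55 and 4.08 in wild type cells. That is a rise of 14.1-fold (adjusted p = 3.4e-10). Wdr12, needed to mature the large subunit RNA, rose 7.39-fold, and the nucleolar phosphoprotein Nolc1 rose 7.05-fold.

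The E-box CACGTG was searched for in RefSeq promoter windows of GRCm38.p6, which run from 250 bases before to 50 after each gene start. The motif is its own reverse complement, so 1 search covers both strands, and it overlaps no other motif searched. It occurred in 7.15% of 32851 windows. Counted by gene, with the motif in any window of the gene, the share was 8.093% of all 27025 genes with a window. It was 12.88% of the 5332 tested genes with a window, 14.75% of genes called higher, 11.94% of those called lower and 12.06% of those not called. Among ribosome biogenesis genes the share was 22.22% of 36, among nucleotide synthesis genes 12.0% of 25 and among mitosis genes 5.882% of 34. Of interferon response genes 4.545% of 22 held it, and of mature B cell genes 0.0% of 13. These shares rest on few genes and were not tested. A match is a description of these letters and not a measured binding site. The promoters of the 3 ribosome biogenesis genes with the largest rise among those holding the motif, and of Slc16a1, the largest rise among all genes that holds it, are printed below with the motif in capitals.
Nop2, chr6:125131633-125131932, plus strand, motif 60 bases before the start: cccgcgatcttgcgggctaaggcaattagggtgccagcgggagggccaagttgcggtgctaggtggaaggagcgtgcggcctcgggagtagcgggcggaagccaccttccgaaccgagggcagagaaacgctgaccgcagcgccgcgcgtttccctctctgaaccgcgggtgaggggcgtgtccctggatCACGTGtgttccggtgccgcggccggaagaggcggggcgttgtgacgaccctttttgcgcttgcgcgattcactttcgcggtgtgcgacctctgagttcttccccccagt
Utp4, chr8:106893390-106893689, plus strand, motif 16 bases after the start: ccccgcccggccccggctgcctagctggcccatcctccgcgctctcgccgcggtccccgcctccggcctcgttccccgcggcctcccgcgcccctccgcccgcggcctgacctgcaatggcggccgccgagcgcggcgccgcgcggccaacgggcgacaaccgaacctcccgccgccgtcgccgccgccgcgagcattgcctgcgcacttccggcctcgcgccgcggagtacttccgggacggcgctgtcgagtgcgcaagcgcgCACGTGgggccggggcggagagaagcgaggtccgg
Utp20, chr10:88826765-88827064, minus strand, motif 38 bases after the start: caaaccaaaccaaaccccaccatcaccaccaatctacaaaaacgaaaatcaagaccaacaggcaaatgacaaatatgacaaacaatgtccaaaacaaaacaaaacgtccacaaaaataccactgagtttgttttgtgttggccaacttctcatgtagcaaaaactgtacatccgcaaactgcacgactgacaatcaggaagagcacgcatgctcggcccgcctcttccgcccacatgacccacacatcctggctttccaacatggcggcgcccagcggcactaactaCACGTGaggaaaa
Slc16a1, chr3:104638414-104638713, plus strand, motif 200 bases before the start: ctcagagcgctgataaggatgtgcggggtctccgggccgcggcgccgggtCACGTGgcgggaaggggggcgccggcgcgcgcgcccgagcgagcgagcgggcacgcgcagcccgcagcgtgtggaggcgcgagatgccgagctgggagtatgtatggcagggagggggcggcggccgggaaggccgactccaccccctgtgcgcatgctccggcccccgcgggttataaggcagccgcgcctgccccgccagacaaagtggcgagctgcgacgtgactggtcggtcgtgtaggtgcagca

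Those 4 genes were all higher in every lymphoma than in any wild type array. Nop2, an rRNA methyltransferase of the nucleolus, lay at 8.43 to 9.18 in lymphomas (median 8.85) and at 7.02, 6.89, 7.09 and 6.70 in wild type cells, a rise of 3.7-fold (adjusted p = 2.4e-09). Utp4 and Utp20, parts of the complex that processes the small subunit RNA, rose 3.18-fold and 2.67-fold. Slc16a1, a lactate transporter, lay at 9.28 to 10.49 in lymphomas (median 9.83) and at 6.01, 5.89, 5.40 and 5.88 in wild type cells, a rise of 16.5-fold (adjusted p = 2.3e-11).

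The ribosomal proteins themselves moved little. Of 30 cytosolic ribosomal proteins 11 were higher and 0 lower, with a median log2 change of 0.16, with 7 higher under spike centring, 7 without the 7 arrays that held Bpifa2, 5 without wild type replicate 3 or 4, and 1 with the covariate. Rpl19 lay at 12.48 to 12.78 in lymphomas (median 12.62) and at 12.48, 12.67, 12.41 and 12.50 in wild type cells, with a change of 0.12 (95% interval -0.07 to 0.31). These levels were among the highest on the arrays. Translation factors rose more often, with 20 of 23 higher, a median of 0.80, and 12 higher with the covariate. The initiation factors Eif1a and Eif3b rose 5.06-fold and 4.25-fold. Of 18 aminoacyl-tRNA synthetases, which charge tRNAs, 15 were higher (median 0.92, 9 with the covariate), among them Gars at 3.48-fold. No member of these 3 lists was called lower through its brightest probe set in the main fit. Through the most variable probe set, 2 translation factors and 1 synthetase were lower. With no filter, median centring or the mean of probe sets, 1 ribosomal protein was lower. Rps24, Eif3a and Eif3c had probe sets called in opposite directions.

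Cell division genes showed the largest median rise of the 32 lists. Of 41 mitosis genes 39 were higher and 1 lower, with a median log2 change of 2.70, and in 37 all lymphomas lay above all wild type arrays. With the covariate 36 were higher. Bub1b, a kinase of the spindle checkpoint, lay at 8.11 to 8.78 in lymphomas (median 8.30) and at 4.26, 4.39, 3.43 and 4.03 in wild type cells. Its rise was 20.3-fold (adjusted p = 2.5e-13), with a spread of 0.23 among lymphomas (SD). Mki67, the proliferation marker Ki-67, rose 13.04-fold, the mitotic kinase Aurkb rose 11.3-fold, and the topoisomerase Top2a rose 9.42-fold. The exception was Pttg1, securin, which was 1.54-fold lower (adjusted p = 0.0083). That call ended with spike centring (adjusted p = 0.47), with the covariate (0.92) and without wild type replicate 2 (0.069).

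DNA replication followed the same course, with 33 of 37 genes higher and 0 lower, a median of 2.05, and 28 higher with the covariate. Mcm10, an initiation factor of replication forks, lay at 6.64 to 8.01 in lymphomas (median 7.31) and at 3.28, 3.33, 3.36 and 3.70 in wild type cells, a rise of at least 10.2-fold. Pole, the leading strand polymerase, rose 10.8-fold. Of 28 genes of DNA damage response and repair, 20 were higher and 1 lower (median 1.09, 9 higher with the covariate). Brca2 and Rad54l, which act in homologous recombination, rose 5.44-fold and at least 4.86-fold.

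Of 15 D-type cyclins, CDKs and CDK inhibitors, 7 were higher and 5 lower, and 3 were lower with spike centring or with the covariate. Ccnd1 (cyclin D1) lay at 4.02 to 8.89 in lymphomas (median 8.38) and at 3.30, 3.55, 3.31 and 3.00 in wild type cells, a rise of at least 15.2-fold (adjusted p = 3.4e-06). The lowest lymphoma, replicate 13, was only just above the floor. No wild type array held Ccnd1 above the floor, so its p-value carries the limit given for the filter. Ccnd2 (cyclin D2) lay at 2.99 to 8.71 in lymphomas (median 5.44) and at 8.31, 8.53, 8.24 and 8.18 in wild type cells. It was 7.6-fold lower (adjusted p = 0.0016, 0.099 with the covariate), although lymphoma replicate 11 lay above every wild type array. Cdk4, the kinase of the D-type cyclins, rose 2.77-fold, and Ccne1 (cyclin E1) rose 3.66-fold.

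Most tested genes of nucleotide synthesis and amino acid supply were higher in lymphomas. Of 26 nucleotide synthesis genes 22 were higher and 1 lower, with a median of 2.06, and 19 were higher with the covariate. Uck2, a uridine and cytidine kinase, lay at 7.07 to 8.43 in lymphomas (median 7.56) and at 4.10, 3.48, 3.50 and 3.78 in wild type cells, a rise of at least 12.4-fold. Mthfd2, of mitochondrial folate metabolism, rose 8.05-fold, and Dctpp1, which clears non-canonical nucleotides, rose 6.75-fold. Of 18 genes of amino acid supply and targets of the transcription factor ATF4, 11 were higher and 1 lower (median 1.24, 10 higher with the covariate). Bcat1, the cytosolic branched-chain aminotransferase, lay at 7.47 to 9.10 in lymphomas (median 8.33) and at 3.03, 3.33, 2.51 and 3.27 in wild type cells, a rise of at least 20.9-fold. The transporter Slc7a5 rose 12.9-fold and the serine synthesis enzyme Psat1 rose 9.22-fold, while Ddit3, a stress factor of the same list, was 2.14-fold lower. In polyamine synthesis, 3 of 6 genes rose, with the synthase Srm up 6.94-fold and the first enzyme Odc1 up 4.05-fold (2 of the 6 were higher with the covariate).

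Of 16 genes of glycolysis and lactate, 11 were higher and 2 lower, with a median of 1.49, and 7 were higher with the covariate. Ldha, which makes lactate, lay at 11.84 to 12.45 in lymphomas (median 12.04) and at 9.63, 9.55, 9.54 and 9.65 in wild type cells. It rose 5.53-fold (adjusted p = 3.7e-12) with no overlap. The hexokinases went apart. Hk2 rose at least 6.79-fold, and Hk1 was 2.89-fold lower (adjusted p = 0.0012, 0.14 with the covariate). The respiratory chain and ATP synthase moved by less, with 30 of 42 genes higher, 0 lower and a median of 0.60, and 14 were higher with the covariate. Cycs (cytochrome c) rose 2.95-fold.

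Genes of the proteasome and of protein folding rose in part. In the proteasome 25 of 31 genes were higher and 0 lower (median 0.72, 11 higher with the covariate), with the lid subunit Psmd3 up 3.57-fold. Of 28 folding factors and chaperonins, 19 were higher and 3 lower (median 0.64, 12 higher with the covariate). The mitochondrial chaperonin Hspd1 rose 4.77-fold, whereas Pdia4, a disulfide isomerase of the endoplasmic reticulum, was 6.86-fold lower. Of 18 genes of cholesterol synthesis and uptake 2 were higher and 3 lower, with a median of 0.02, and 1 was higher and 1 lower with the covariate. Without wild type replicate 1 or 2, 0 were higher, and with spike centring 4 were higher and 1 lower.

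**Figure D3:**
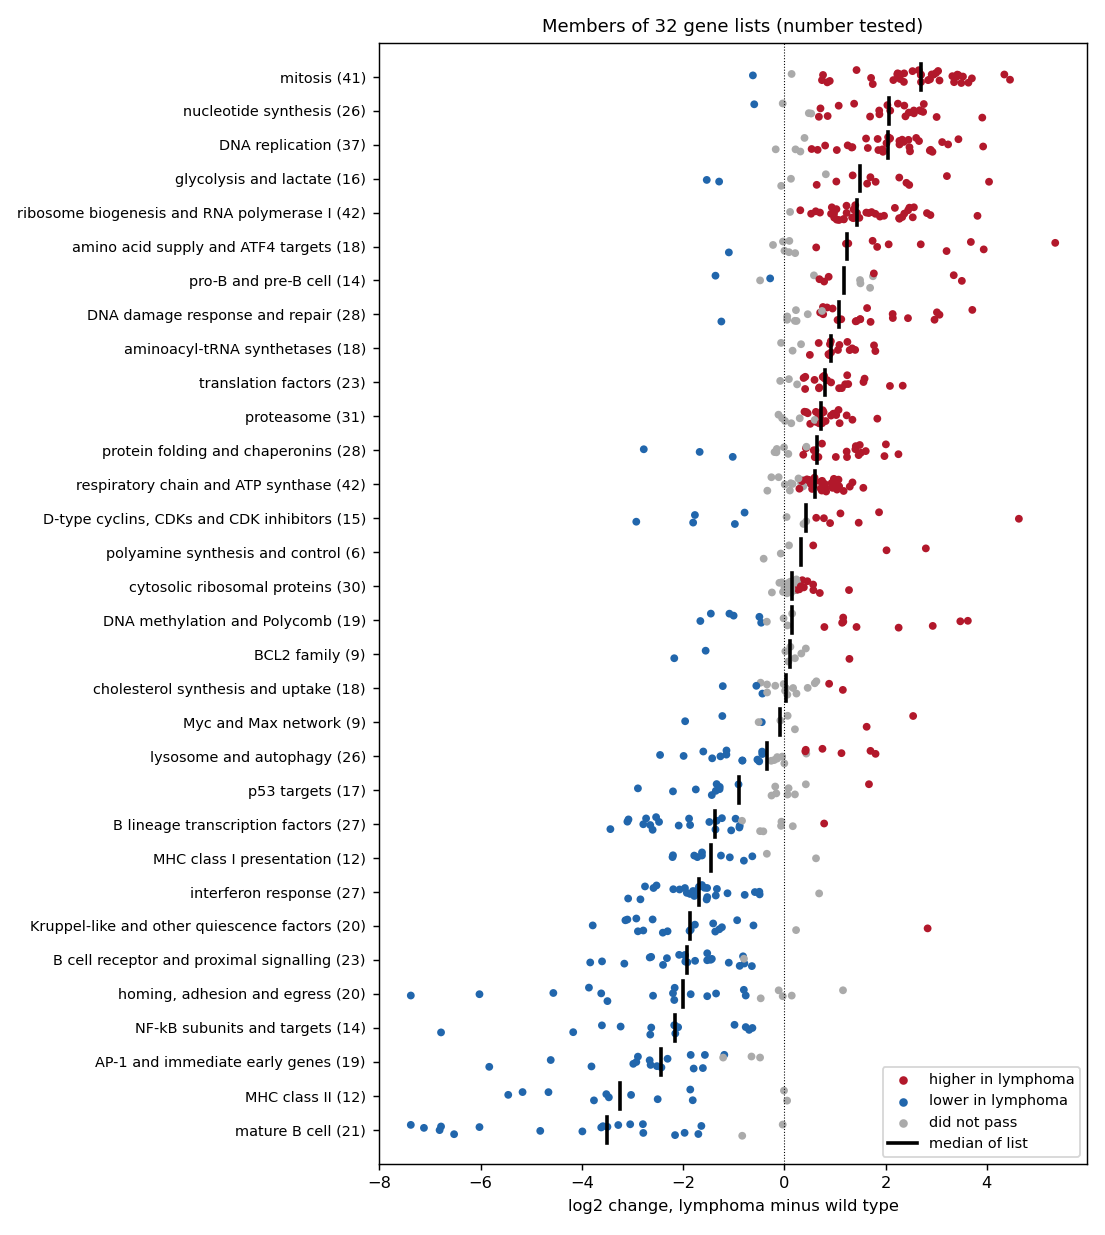
Log2 change of each tested member of 32 gene lists, lymphoma minus wild type, with lists ordered by their median (black bar) and the number tested in brackets. Colours mark members called higher, called lower or not passed. Mitosis heads the plot with a median of 2.70 and mature B cell genes end it at -3.50.

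The surface and signalling genes of a mature B cell made up the other pole. Of 21 tested mature B cell genes 0 were higher and 19 lower, with a median log2 change of -3.50, and in 18 no lymphoma overlapped the wild type range. With the covariate 17 were lower. In bulk RNA fewer cells of a type and less RNA per cell cannot be told apart, and this applies to every gene group here. Cxcr5, the receptor that guides B cells into follicles, lay at 2.31 to 3.00 in lymphomas (median 2.40) and at 9.64, 10.07, 9.85 and 9.93 in wild type cells. All 13 lymphomas were under the floor. The loss was at least 58.6-fold (limma adjusted p = 9.5e-18). That p-value carries the limit given for genes that no lymphoma held above the floor.

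Several other follicular B cell genes fell as far. Ltb (lymphotoxin beta), which organises lymphoid tissue, lay at 2.31 to 6.45 in lymphomas (median 4.37) and at 11.43, 11.09, 10.91 and 11.11 in wild type cells, and was 112-fold lower. The complement receptor Cr2 was at least 59.6-fold lower, the IgE receptor Fcer2a at least 65.6-fold lower, and Cd83, a marker of activation, at least 48.2-fold lower. The highest lymphoma stood at 3.64 for Cr2, 4.06 for Fcer2a and 3.11 for Cd83, so all lymphomas were at or close to the floor for these 3 genes. Ms4a1, which encodes CD20, varied more. It lay at 4.64 to 10.68 in lymphomas (median 8.32) and at 11.63, 12.27, 12.19 and 12.04 in wild type cells, 15.9-fold lower (adjusted p = 0.001, 0.054 with the covariate). Ccr6, a chemokine receptor, was at least 22.98-fold lower. Cd44 and Fcgr2b were the 2 members that did not pass, although both were called lower through their most variable probe set (adjusted p = 0.0028 and 0.0079).

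Genes of the B cell receptor and its proximal signalling fell with these, 22 of 23 lower and 0 higher, with a median of -1.92. With the covariate 11 were lower. Cd79b, given above, was 4.22-fold lower (adjusted p = 3.3e-07) yet stayed high in every lymphoma. The adaptor Sla lay at 4.23 to 6.66 in lymphomas (median 5.21) and at 9.39, 8.80, 8.56 and 9.24 in wild type cells, 14.3-fold lower. The kinase Blk lay at 2.76 to 9.33 in lymphomas and at 9.92, 10.10, 9.69 and 9.73 in wild type cells. It was 8.95-fold lower (adjusted p = 0.0064, 0.43 with the covariate), and lymphoma replicates 1 and 5 were the ones under the floor. Ptprc, whose B cell isoform is B220, was 6.32-fold lower. The labels name B220 as a sorting marker, and the part of the sort in this difference was not tested.

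Antigen presentation fell in both MHC classes. Of 12 MHC class II genes 10 were lower and 0 higher, with a median of -3.25, and with the covariate 4 were lower. H2-Oa, which tunes peptide loading, lay at 2.91 to 6.71 in lymphomas (median 4.59) and at 10.05, 10.13, 10.02 and 9.71 in wild type cells, 43.9-fold lower (adjusted p = 1.3e-07). H2-DMb2 and H2-DMa, the peptide exchange factor, were 36.1-fold and 25.3-fold lower, and the call for H2-DMa ended with the covariate (adjusted p = 0.34). Of 12 MHC class I genes 10 were lower (median -1.44, 4 with the covariate), with the peptide transporter Tap1 4.6-fold lower and the heavy chain H2-K1 3.43-fold lower. Genes that share sequence with close paralogs, such as those of MHC, can cross-hybridise on short oligonucleotide arrays.

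Interferon genes were lower in 26 of 27 cases and higher in 0, with a median of -1.69. With the covariate 18 were lower, and with the stricter filter at log2 6, which tests fewer genes, 12. Irf9, a part of the interferon-stimulated gene factor, lay at 3.77 to 4.57 in lymphomas (median 4.08) and at 7.27, 6.44, 7.28 and 6.92 in wild type cells, 7.18-fold lower. Irf1 was 5.76-fold lower. All 14 tested NF-κB subunits and targets were lower (median -2.17, 12 with the covariate). Nfkb2 lay at 2.46 to 5.63 in lymphomas (median 4.29) and at 8.62, 8.78, 8.09 and 8.20 in wild type cells, 18.02-fold lower.

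Immediate early genes were low in the lymphomas. Of 19 tested AP-1 and immediate early genes 16 were lower and 0 higher, with a median of -2.43, and 12 were lower with the covariate. Fos lay at 2.55 to 3.42 in lymphomas (median 3.03) and at 9.24, 10.22, 7.79 and 7.98 in wild type cells. No lymphoma was above the floor, while the 4 wild type arrays ranged over more than 2 log2 units. The difference was at least 28.03-fold (limma adjusted p = 4.4e-11). The p-value carries the limit given for genes that no lymphoma held above the floor. Jun was at least 11.5-fold lower and Zfp36, which destabilises AU-rich mRNAs, was 14.03-fold lower.

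Factors tied to quiescence and homing fell. Of 20 Kruppel-like and other quiescence factors 18 were lower and 1 higher (median -1.86, 13 lower with the covariate). Klf2, which keeps lymphocytes quiescent and circulating, lay at 5.93 to 8.68 in lymphomas (median 8.15) and at 10.87, 11.04, 9.81 and 10.18 in wild type cells, 6.9-fold lower. Slfn2 was 13.8-fold lower and Tsc22d3 8.82-fold lower (adjusted p = 0.1 for Tsc22d3 with the covariate). The exception, Klf9, was 7.11-fold higher, but another probe set of the same gene was called the other way. Of 20 genes of homing, adhesion and egress 15 were lower and 0 higher (median -2.01, 12 with the covariate), with the adhesion receptor Adgre5 (CD97) 14.5-fold lower. Of 26 lysosome and autophagy genes 13 were lower and 6 higher (median -0.35), with spike centring 7 were lower and 7 higher, and with the covariate 7 were lower and 3 higher. Ctsh and Ctss, cathepsins of antigen processing, were 5.48-fold and 3.97-fold lower, while Ctsd was 3.49-fold higher.

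**Figure D4:**
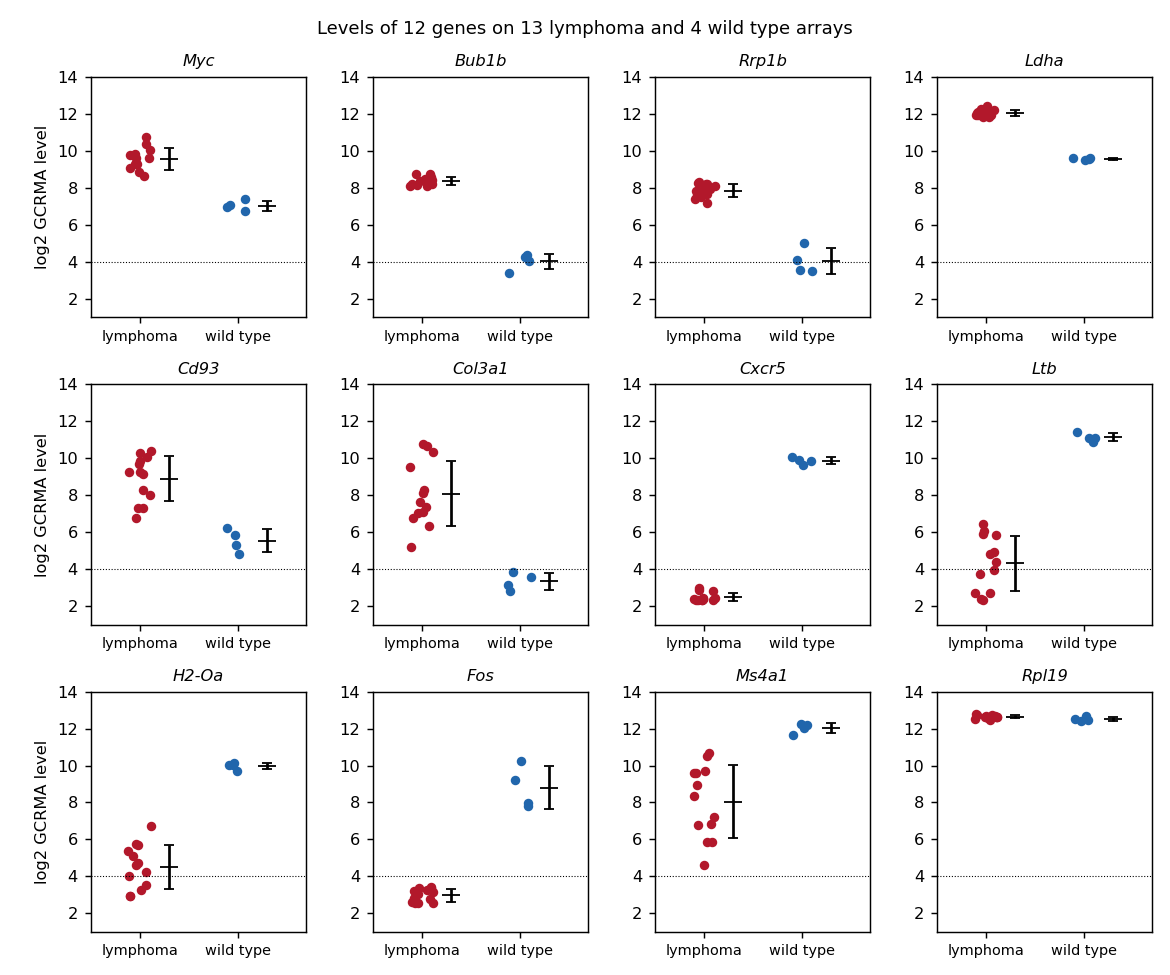
Log2 GCRMA level of 12 genes on each array, lymphoma left and wild type right, with mean and SD beside the points and the floor of log2 4 dotted. Myc, Bub1b, Rrp1b, Ldha, Cd93 and Col3a1 lie higher in all lymphomas, Cxcr5, Ltb, H2-Oa, Fos and Ms4a1 lie lower in all, and Rpl19 overlaps.

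Of 14 pro-B and pre-B genes, markers of immature B cells, 6 were higher and 2 lower, with a median of 1.19. With the covariate 4 were higher and 0 lower. A single gene was lower with spike centring, with the replicate block, in the fit over all 3 groups, and without wild type replicate 1 or 4. Cd93, carried by immature B cells, lay at 6.75 to 10.39 in lymphomas (median 9.25) and at 6.23, 5.84, 5.28 and 4.84 in wild type cells, a rise of 10.2-fold (adjusted p = 8.6e-05). Myb, a progenitor transcription factor, rose 11.4-fold. Sox4, a factor of early B cells, rose 3.41-fold (adjusted p = 0.016), and its call ended without wild type replicate 3 or 4 (0.054 and 0.061), without the 7 arrays that held Bpifa2 (0.10) and with the covariate (0.11). The surrogate light chain gene Igll1 and the recombinase Rag1 were chosen for their spread after their values were seen. Igll1 was 12.22 in lymphoma replicate 1, 8.60 in replicate 10 and 7.21 in replicate 7, and lay between 3.65 and 5.26 in the other 10, against 3.70, 3.80, 3.65 and 3.77 in wild type cells. Rag1 was 8.65, 8.68, 8.97 and 8.09 in lymphoma replicates 3, 6, 7 and 10, and 3.09 to 5.93 in the other 9, against 3.41, 3.83, 3.57 and 3.44 in wild type cells. Neither passed the test (adjusted p = 0.3 and 0.2).

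B lineage transcription factors fell in 20 of 27 cases and rose in 1, with a median of -1.36 and 12 lower with the covariate. Mef2c lay at 5.17 to 8.20 in lymphomas (median 6.31) and at 9.54, 9.07, 9.75 and 9.58 in wild type cells, 8.45-fold lower (adjusted p = 3.5e-06, 0.07 with the covariate). Tcf3, which encodes the E2A factors, was the one that rose, 1.72-fold (adjusted p = 0.0057). Ebf1, an early B cell factor, lay at 7.20 to 8.53 in lymphomas and at 8.44, 7.20, 8.64 and 8.61 in wild type cells and did not pass. It was called lower without wild type replicate 2, the lowest of its group (log2 change -0.82, adjusted p = 0.0072), without the 7 arrays that held Bpifa2 (-0.66, adjusted p = 0.042) and with the mean of its probe sets (-0.91, adjusted p = 0.00086). Of 19 genes of DNA methylation and Polycomb 9 were higher and 6 lower, and 5 were higher with the covariate. Uhrf1 and Hells, which maintain DNA methylation, rose 12.3-fold and 11.1-fold, and the Polycomb methyltransferase Ezh2 rose 7.63-fold. Bmi1, of the other Polycomb complex, was 2.12-fold lower.

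Survival and p53 genes went in several directions. Of 17 p53 targets 1 was higher and 9 lower, with a median of -0.91, and 5 were lower with the covariate. Mdm2, the p53 ligase, lay at 5.23 to 7.08 in lymphomas (median 5.72) and at 7.14, 7.14, 6.75 and 7.59 in wild type cells, 2.43-fold lower (adjusted p = 1.7e-04, 0.25 with the covariate), with 1 lymphoma inside the wild type range. Btg2, an antiproliferative gene, was 7.43-fold lower, and the exonuclease Aen was 3.19-fold higher. In the BCL2 family 1 of 9 rose and 2 fell, the same counts as with the covariate. Mcl1, an antiapoptotic member, lay at 8.44 to 9.76 in lymphomas (median 8.80) and at 11.32, 11.24, 10.97 and 10.98 in wild type cells, 4.52-fold lower (adjusted p = 5.3e-08). Bcl2 was at least 1.61-fold lower, under the floor in all lymphomas, and the effector Bak1 was 2.44-fold higher. Of the tumour suppressors of this pathway, Cdkn2a and Cdkn1a did not pass the filter and were not tested.

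Apart from the lists, the 10 largest rises without overlap held several genes of no list. Ptgr1 is an enzyme that acts on prostaglandins and leukotrienes. It lay at 4.05 to 10.19 in lymphomas (median 9.45) and at 3.07, 3.14, 2.93 and 3.44 in wild type cells. Its rise was at least 31.5-fold (limma adjusted p = 1.3e-06). Only replicate 13 lay near the floor, and the other 12 were at 8.79 or more. No wild type array held Ptgr1 above the floor, so its p-value carries the limit given for the filter. Mt1, a metallothionein, rose at least 27.7-fold, the fatty acid binding protein Fabp5 rose at least 27.5-fold and the methyltransferase Smyd2 rose at least 17.7-fold. Igfbp4, an insulin-like growth factor binding protein, rose at least 15.3-fold. Among the 10 largest falls were Jchain, which joins IgA and IgM, at 1.66 to 7.76 in lymphomas (median 2.77) and 10.74, 10.60, 11.30 and 11.65 in wild type cells, at least 135-fold lower. Igha, which encodes the heavy chain of IgA, was 62.2-fold lower, and Ly6d and Ms4a4c were 96.6-fold and at least 55.5-fold lower. Of 10 plasma cell markers on the array, 8 were tested and 6 of them fell, and the summed level was 367 to 1231 in lymphomas and 5151 to 7144 in wild type cells. The part of plasma cells among the wild type cells was not tested.

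Several stromal transcripts were measured in the lymphomas. Of the 15 such genes tested, 11 were above the floor on no wild type array, so that their passing the filter already rested on their level in the other arrays, and no count of rises is drawn from them. Sparc and Col3a1 are among those 11, and no test is read as support for them. Sparc, a matrix glycoprotein, lay at 5.83 to 9.36 in lymphomas (median 7.89) and at 3.27, 3.15, 2.86 and 2.89 in wild type cells. Its level was at least 14.6-fold higher in lymphomas. Col3a1, a fibrillar collagen, was at least 17.04-fold higher, and its call ended with the covariate (adjusted p = 0.26). Col4a1, of basement membrane, rose 13.7-fold, and Pecam1, an endothelial and leukocyte adhesion molecule, was 4.52-fold lower (adjusted p = 0.17 with the covariate). The part of stromal cells in the other rises was not tested. Lyz2, of myeloid cells, rose 7.26-fold, while 3 of 14 macrophage genes rose and 4 fell, and the macrophage sum was 2300 to 15121 in lymphomas and 4009 to 7237 in wild type cells. Tfrc, the transferrin receptor of dividing and erythroid cells, rose 6.42-fold and was the only erythroid list member higher.

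The lymphomas also differed from each other. The median SD of a gene was 0.333 among lymphomas and 0.255 among wild type arrays, and an SD over 1 was found for 249 genes among lymphomas and 63 among wild type arrays. Of the 10 genes with the largest SD, 7 (Bpifa2 itself, Amy1, Smr3a, Chia1, Dnase1, Dcpp3 and Car6) were above the floor only in lymphomas that also held Bpifa2. Xist, expressed from the inactive X, ranged from 1.73 to 11.41 in lymphomas and lay at 1.85, 2.68, 10.63 and 10.56 in wild type cells, high on some arrays and under the floor on others in both groups. Reln, a secreted glycoprotein, lay at 2.42 to 11.48 in lymphomas (median 9.49), with replicates 6, 11 and 13 under the floor, and at 3.17, 3.53, 3.36 and 3.55 in wild type cells. It passed as higher (limma adjusted p = 0.013, 0.41 with the covariate). No wild type array held Reln above the floor, so these p-values carry the limit given for the filter. The immunoglobulin light chain segment Igkv9-120 was 10.76 and 9.61 in lymphoma replicates 8 and 9, under log2 8 in the other 11, and 11.03, 10.28, 10.75 and 10.61 in wild type cells. The closest pair of lymphomas was 3 and 7, at an RMS of 0.342, within the range of wild type pairs, and the next was 8 and 9 at 0.483. The labels give the lymphomas as coming from independent mice, and the values of no pair were identical. The number of called genes that lay inside the wild type range was 229 in replicate 10, 475 in replicate 13 and 340 at the median, or 5.79% to 12.0% of the 3956. In the premalignant arrays it was 909 to 1392. The genes were called on these same lymphoma and wild type arrays, while the premalignant arrays had no part in that choice. The counts of the 2 groups are therefore not on equal terms.

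In single lymphomas the genes of a whole chromosome deviated in the same direction. For this, 2188 genes with a mean over log2 7 were taken, each array was centred, and the median deviation of a chromosome's genes from their lymphoma median was read, with a threshold of 0.25 log2 units chosen after the values were seen. Of 260 pairs of an array and a chromosome in the lymphomas, 19 lay above and 3 below it, in 12 of the 13 lymphomas, and the other pairs lay between -0.246 and 0.245. All 80 pairs of the wild type arrays lay between -0.068 and 0.070, and all 100 of the premalignant arrays between -0.189 and 0.107. Each of these arrays was read against the median of its own group, of 4 or 5 arrays. In a small group an array weighs more in its own reference, which draws deviations toward 0, so these ranges and those of the lymphomas are not on equal terms. A shift shared by most lymphomas would not show. Genes of chromosome 13 were lower by a median of 0.78 in replicate 4, 0.41 in replicate 8 and 0.87 in replicate 9, where 71, 61 and 72 of 72 genes lay below the lymphoma median. Genes of chromosome 12 were higher by 0.30 to 0.39 in replicates 3, 7, 10 and 11, and those of chromosome 6 by 0.32 to 0.40 in replicates 2, 6 and 11. Chromosome 5 was higher in replicates 8 and 9, by 0.40 and 0.45. Chromosome 16 was higher by 0.56 in replicate 13, where 58 of 59 genes lay above the median. Chromosome 15, which carries Myc, was past the threshold in replicate 1 only, at 0.44. Replicate 5 had no chromosome past it. DNA copy number was not analysed here. In the comparison with wild type, 18.3% of the 230 tested genes of chromosome 13 were called higher and 33.0% lower, beside 31.8% and 29.7% over all chromosomes. On chromosome X 21.9% of 178 genes were called higher and 37.1% lower, and on chromosome 1 36.6% of 363 genes were called lower, and neither chromosome was past the threshold in any array.

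**Figure D5:**
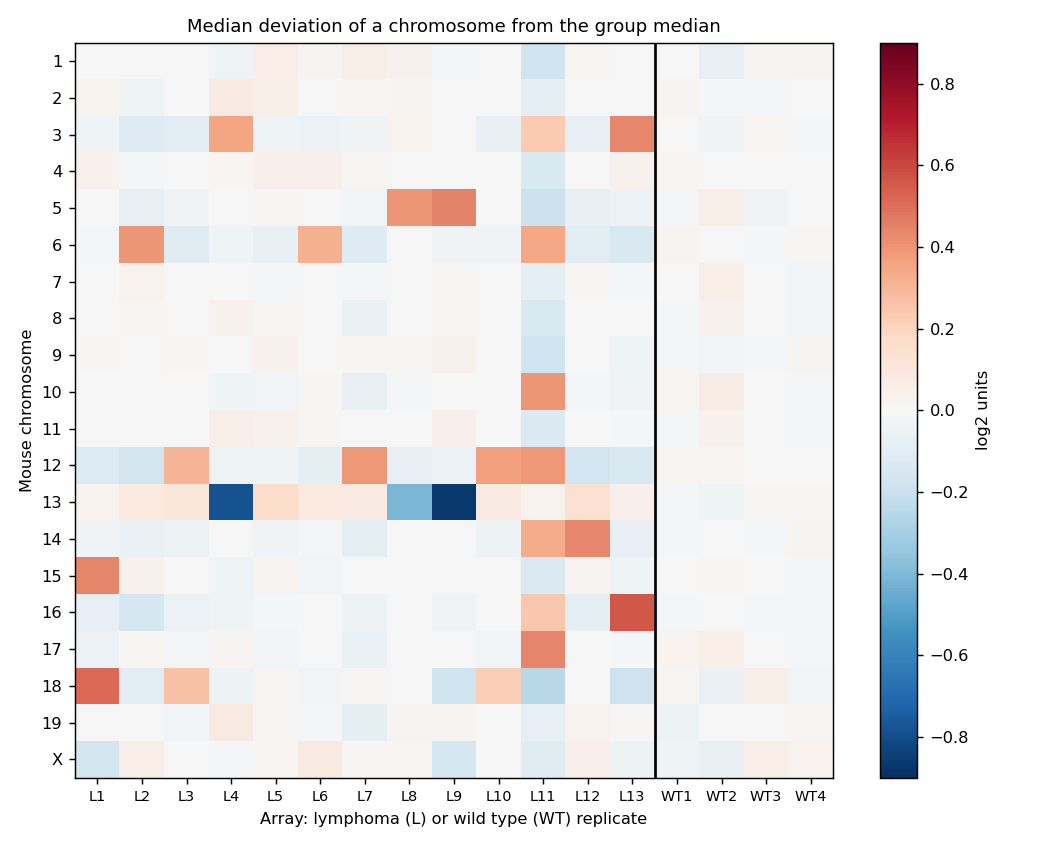
Median log2 deviation of each chromosome's genes from the median of their own group, for 13 lymphoma arrays (L) left of the line and 4 wild type arrays (WT) right of it. Blocks of colour appear in single lymphomas, such as chromosome 13 in L4, L8 and L9 and chromosome 16 in L13, and the wild type columns stay within 0.070 of 0.

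The premalignant arrays lay between the other groups. The RMS difference of group means was 0.651 log2 units between premalignant and wild type arrays, 0.821 between lymphoma and premalignant arrays and 1.24 between lymphoma and wild type arrays. These steps share arrays, so they are set side by side without a test. The beta-actin 3′ minus 5′ difference averaged 0.70 in premalignant, 0.77 in wild type and 1.93 in lymphoma arrays. The groups of the second step thus differed in this control, and those of the first hardly did. The part of RNA quality in either step was not tested. The steps were unequal between gene groups. The median mitosis gene was 1.97 higher in premalignant than in wild type cells and 0.72 higher again in lymphomas, and DNA replication genes gave 1.25 and 0.68. Ribosome biogenesis genes gave 0.72 and 0.79. Mature B cell genes gave -1.06 and -2.37, MHC class II genes -0.70 and -2.58, immediate early genes -0.10 and -2.12, and glycolysis genes 0.36 and 1.16. The median over all genes was -0.05 and 0.09.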

How the data were processed

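RNA was extracted with RNeasy, given biotin by a 1-cycle protocol and hybridised to MOE430A arrays, per the labels' protocols. The deposited values are intensities on a linear scale that the authors made with GCRMA, per the submitters' processing notes, a method that corrects background from probe sequence, equalises the arrays' distributions and sums up each probe set. The sources used here do not give the GCRMA version, or say whether it was run on all arrays at once. Array medians ran from 9.97 to 12.4 in intensity and maxima from 13507 to 18277. Log2 was taken here.

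Of 22690 probe sets, 20380 (89.8%) had 1 gene symbol in GEO's platform annotation, 691 several, 1555 none, and 64 were controls. 0 symbols changed when looked up in the RefSeq gene table. Each gene was represented by its brightest probe set (mean of 22 arrays) among those above log2 4 on at least 4 arrays. Of 2270 genes with several probe sets, 75 had probe sets called in opposite directions. The 17 arrays were fitted with limma 3.58.1 (two-sided lmFit and eBayes, with treat for changes past 2-fold) under R 4.3.3 (statmod 1.5.0 loaded), and the threshold was an adjusted p of 0.05 (Benjamini-Hochberg, over 6437 genes). Distances and control probe sets were tested by exact permutation of arrays.

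The 32 pathway and 12 cell type lists, the tests and the rules were chosen with earlier results of these data known, so the lists are described by counts and medians and given no test. Of their 1069 entries, 936 had a probe set of their own and 783 passed the filter. Named genes are the 10 largest rises and falls without overlap, from each list up to 3 members called in its main direction, 1 called in the other and 2 not called, the Myc network, Mdm2, Cdkn1a and Cdkn2a, the 10 largest SDs among lymphomas and the 5 best determined unchanged genes. Promoter windows are from RefSeq, GRCm38.p6. Alternatives changed the filter, the scaling, the choice of probe set, the samples in the fit, the weights, the variance trend, the replicate block, the beta-actin covariate and single arrays. Leaving out the 7 lymphoma arrays with salivary transcripts was chosen after seeing the data. Igll1 and Rag1 were chosen after their values were seen.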

Additional observations from a re-analysis of the deposited data

Results flagged for a closer look

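In groups of 4 arrays, the wild type values were searched for 1 array far from the other 3, over the 128 genes named here and 3 measures of the arrays. Chance alone marks about 1 in 20 such groups. The 6 cases found are near that rate, so no trait of an array is read from their number. Wild type replicate 2 stood apart in 5 of them. Its distance from the mean of the other wild type arrays was 0.506 log2 units, and the others lay at 0.379 to 0.398. Brca2 was 3.00 there and 4.25 to 4.38 on the other wild type arrays, Ebf1 7.20 and 8.44 to 8.64, Col4a1 4.56 and 4.36 to 4.38, and Smr3a 2.93 and 2.62 to 2.64. Hk1 was 7.69 in wild type replicate 1 and 6.89 to 6.98 on the others. A search for 1 array apart misses a split of replicates 1 and 2 from 3 and 4. C1qa, a macrophage gene, was 6.13 and 6.69 in wild type replicates 1 and 2, and 8.92 and 8.93 in 3 and 4. Xist split along the same line, at 1.85 and 2.68 against 10.63 and 10.56. Without wild type replicate 2 the count of called genes was 3654, beside 3956 with it, and the calls of Pttg1 and Ebf1 changed as given above.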

How the results depend on the processing

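Leaving out single arrays in turn gave 3585 to 3978 called genes (3956 with all arrays), 1808 to 2063 higher, 1684 to 1918 lower, 1924 to 2009 of at least 2-fold and 782 to 907 past 2-fold by treat. The distance between group means was 1.22 to 1.26 and the beta-actin difference 1.11 to 1.21 in those fits. With no filter 7921 genes were called and 5797 of them were lower, since dim genes near the floor then enter. With the filter at log2 6, which tests fewer genes, 1256 were lower. Spike centring gave 843 lower. The beta-actin covariate gave 1879 called genes, 926 higher and 953 lower, and 306 past 2-fold. The cause was not tested for spike centring or for the covariate. Of the genes named, 20 lost their call with the covariate, and Pttg1 reversed to a log2 change of 0.050. The replicate number does not pair the samples: same-numbered lymphoma and wild type arrays had correlations of deviations of -0.026, 0.066, 0.040 and -0.080, and wild type arrays 1 to 4 correlated best with lymphomas 8, 10, 7 and 7. With it as a block 2905 genes were called, 1592 higher and 1313 lower, and 658 passed 2-fold by treat. A lymphoma whose number no wild type array shares forms a block alone and adds nothing to that difference. The block fit thus compares lymphomas 1 to 4, all of which held Bpifa2, with wild type arrays 1 to 4. Without the 7 lymphomas that held Bpifa2, an alternative chosen after seeing the data, 1919 were higher and 1776 lower. Signal over background limits the 5956 genes that did not pass the filter, for which nothing is said.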

Other observations

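Neutrophil genes varied among the lymphomas. The summed intensity of 16 such genes was 189 to 6556 in lymphomas, with a median of 382, and 151 to 728 in wild type cells. The median log2 change of the 7 tested was 1.34, and 0.47 with the beta-actin covariate. Among these, Camp and Ltf were under the floor on all wild type arrays, so that passing the filter rested on their level in other arrays. Only 1 was called higher, Gfi1, at 4.24 to 6.61 in lymphomas and 4.00, 4.25, 4.15 and 3.34 in wild type cells (adjusted p = 0.001, 0.36 with the beta-actin covariate). Among erythroid genes, Slc4a1, the anion exchanger of red cells, lay at 3.44 to 3.61 in lymphomas and at 5.82, 8.07, 3.79 and 3.83 in wild type cells, highest in wild type replicate 2. The cytotoxic granule protease Gzma lay at 2.72 to 3.21 in lymphomas and at 6.16, 6.82, 4.40 and 4.53 in wild type cells, at least 2.78-fold lower (adjusted p = 8.4e-07). Pf4, a platelet chemokine, lay at 3.68 to 6.33 in lymphomas and at 3.42, 3.17, 2.95 and 3.60 in wild type cells, at least 1.64-fold higher (adjusted p = 0.0029, 0.12 with the covariate). No lymphoma held Gzma and no wild type array held Pf4 above the floor, so their p-values carry the limit given for the filter. Of 10 dendritic cell genes on the array, 4 were tested and 4 fell, and 1 fell with spike centring.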
